A study of Mus musculus with 6 samples.

Results

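Mesothelium-only intergenic distal regions are stretches of mouse DNA that had a peak of H3K27ac, acetylation of lysine 27 of histone H3, in both mesothelium libraries and in neither epithelium library, away from genes. Overlapping peaks of the 4 libraries on chromosomes 1 to 19, X and Y were merged into 132212 regions. Of these, 3444 had the mesothelium-only pattern. The regions were chosen by the presence of peaks and by position: one was kept when it lay more than 2 kb from both ends of every annotated gene and its midpoint lay outside all protein-coding gene bodies, which left 573. The mesothelium-only pattern also held 1962 distal regions inside coding genes and 909 regions near gene ends. CUT&RUN, which uses an antibody to tether a nuclease that releases the DNA around a mark, was run on cells sorted from pooled lungs of embryos at E16.5 (embryonic day). Mesothelial cells, from the layer that covers the lung, were gated on podoplanin (PDPN) without EPCAM, CD45 or CD31, and gave 2 libraries, labelled 25k and 100k for the cell number. Epithelial cells, positive for PDPN and EPCAM and without CD45 or CD31, gave 2 libraries, labelled 100k and 200k. Both gates also left out cells that took up the dye DAPI. The parents of all embryos had floxed Myrf alleles (Myrf Fl/Fl), no Cre is named for these samples, and the series text calls the mesothelial cells wildtype. Myrf encodes a membrane-bound transcription factor. The protocol gives other cell numbers, 60-100k per H3K27ac profile.

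H3K27ac marks active promoters and enhancers. Enhancers far from genes often act on a gene some distance away and tend to be used in fewer cell types than promoters, and clusters of them can surround genes that set a cell's identity. The mesothelium develops from mesoderm, forms the pleural covering of the lung, secretes growth factors such as FGF9 and the retinoic acid that ALDH1A2 makes, and gives rise to some mesenchymal cells. The nearest coding gene is used below only as an address, since nothing in the files links a region to the gene it acts on.

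Start sites inside the regions and in their neighbours give examples of sequence under mesothelium peaks, and those of the neighbours lie outside the regions. The first pair are annotated internal start sites of noncoding genes that lie in mesothelium-only intergenic distal regions and were covered over all 250 bases by both mesothelium libraries. The next 3 are start sites of coding genes nearest to a region, Zeb2, Mef2c and Arhgap28, again with all 250 bases under a peak in both mesothelium libraries and no base under a peak in epithelium. They were picked from the 4 nearest genes called longer in mesothelium below that had a start site under mesothelium peaks alone. For a gene with several such start sites the one at the lowest coordinate was taken, so it need not be the gene's main start site. Each is the 250 bases before a RefSeq start site, GRCm38.p6 (mm10), 5′ to 3′ on the gene's strand, and capitals mark matches to the motifs searched.
Gm40672, chr10:59670037-59670286, minus strand: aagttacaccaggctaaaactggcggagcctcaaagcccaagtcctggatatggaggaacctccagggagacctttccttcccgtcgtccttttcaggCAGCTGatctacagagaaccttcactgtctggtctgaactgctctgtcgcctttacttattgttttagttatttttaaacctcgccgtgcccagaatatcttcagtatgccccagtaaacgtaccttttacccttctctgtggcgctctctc
C330002G04Rik, chr19:23058093-23058342, minus strand: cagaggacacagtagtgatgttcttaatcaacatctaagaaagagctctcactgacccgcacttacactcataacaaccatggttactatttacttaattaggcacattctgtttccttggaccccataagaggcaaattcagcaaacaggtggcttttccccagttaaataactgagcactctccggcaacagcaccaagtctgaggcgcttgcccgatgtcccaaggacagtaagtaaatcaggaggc
Zeb2, chr2:45110278-45110527, minus strand: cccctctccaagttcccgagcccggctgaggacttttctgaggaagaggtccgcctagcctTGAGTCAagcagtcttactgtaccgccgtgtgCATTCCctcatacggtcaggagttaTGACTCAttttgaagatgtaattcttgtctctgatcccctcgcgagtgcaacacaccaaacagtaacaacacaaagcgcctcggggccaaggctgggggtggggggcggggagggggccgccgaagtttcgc
Mef2c, chr13:83573357-83573606, plus strand: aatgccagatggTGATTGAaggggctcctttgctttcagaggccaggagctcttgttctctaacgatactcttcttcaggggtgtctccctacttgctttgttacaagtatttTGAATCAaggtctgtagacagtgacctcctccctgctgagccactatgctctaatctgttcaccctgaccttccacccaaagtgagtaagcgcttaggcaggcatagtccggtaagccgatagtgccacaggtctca
Arhgap28, chr17:67950941-67951190, minus strand: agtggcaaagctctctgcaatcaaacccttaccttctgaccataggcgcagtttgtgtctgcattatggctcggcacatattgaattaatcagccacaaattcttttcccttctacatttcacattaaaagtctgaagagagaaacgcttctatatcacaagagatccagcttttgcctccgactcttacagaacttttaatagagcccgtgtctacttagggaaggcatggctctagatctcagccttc

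The start site of Gm40672, a long noncoding RNA gene, held the E-box CAGCTG at positions -152 to -147 from the start site. Zeb2, which encodes a zinc-finger repressor of epithelial genes, held the AP-1 motif TGANTCA at -189 to -183 and at -132 to -126 and the TEAD motif GGAATG at -157 to -152. The start site of Mef2c, a MADS-box factor gene of muscle and vessels, held the HOX-type motif TGATTGA at -238 to -232 and TGANTCA at -137 to -131. No motif searched matched in C330002G04Rik or in Arhgap28, which encodes a GTPase-activating protein. The search also took in AGATAA for factors such as GATA6, CTGGCAC or else CTGGTAC for MYRF, TGACAG for MEIS, TGTTTAC for forkhead factors, CACTTGA for NKX2 and GTGGGAG for WT1 and EGR. All were read on both strands, and none of the printed matches overlaps another. These letters are common: of 32851 RefSeq promoters, 13.0% held the E-box, 12.6% the TEAD motif, 6.75% the AP-1 motif and 2.34% the HOX-type motif. The 420 promoters of coding genes nearest to the 573 regions held them in 9.05%, 11.2%, 5.71% and 3.10% of cases, and a MYRF motif in 4.29% of cases. Over the 21263 promoters of all coding genes the shares were 12.1%, 11.7%, 6.13% and 2.23%, and 5.78% for a MYRF motif. The sequences of the other regions were not used here. Of 346 nearest genes with a listed promoter, 13 (3.76%) had a start site under peaks of both mesothelium libraries and neither epithelium library, against 2.85% of 17492 coding genes.

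The deposited lists held 39006 and 41524 mesothelium peaks and 47869 and 46632 epithelium peaks on the chromosomes used. Read depth is unknown, because the lists hold no counts, so an interval without a peak is not an interval without acetylation. The labels do not say whether replicate libraries are separate pools of lungs, and p-values therefore cover the spread of these 4 libraries alone, which may be technical. The lists also cannot tell apart more cells with an acetylated region and more acetylation per cell. The labelled cell types were checked on the kilobases under peaks in marker gene bodies with 2 kb flanks, summed over each marker list. The 7 mesothelial markers summed to 14.6 and 40.3 kb in mesothelium, against 1.14 and 3.75 kb in epithelium, and Upk3b had no peak in mesothelium replicate 1. Msln, the mesothelin gene, ran the other way, with 0.206 and 0.893 kb in mesothelium, against 0.507 and 3.41 kb in epithelium (log2 difference -1.02, limma adjusted p = 0.603). The 6 epithelial markers summed to 7.92 and 0.436 kb in mesothelium, against 46.0 and 52.8 kb in epithelium. Of these, Sftpc was nearly without peaks in epithelium too, with 0 and 0.067 kb. In mesothelium, Epcam and Nkx2-1 had no peak in either library, while Cdh1 had 7.12 kb in replicate 1. Pdpn, which both gates select for, had 0.364 and 0 kb in mesothelium, against 8.64 and 5.93 kb in epithelium (log2 difference -3.56, SE 0.68, limma adjusted p = 0.0079, 0.056 when epithelium replicate 1 is left out, and 0.00014 to 0.218 in the 13 alternatives). The 5 endothelial markers summed to 6.08 and 1.93 kb in mesothelium, against 1.02 and 4.33 kb in epithelium, with Tie1 at 0 in all 4 libraries. Pecam1, which encodes the CD31 that both gates exclude, had 4.36 and 1.53 kb in mesothelium, against 0.325 and 0.923 kb in epithelium (limma adjusted p = 0.321), and Kdr had 1.72 and 0.408 kb in mesothelium, against no peak in epithelium (limma adjusted p = 0.473). Cdh5 and Erg had no peak in mesothelium. The 4 blood markers summed to 0.810 and 0 kb against 0 and 1.34 kb, with Ptprc at 0 in mesothelium. The 6 fibroblast and smooth muscle markers summed to 1.57 and 2.43 kb in mesothelium, against 0.370 and 0.318 kb in epithelium. Pdgfra, Pdgfrb, Tcf21 and Tagln had peaks in mesothelium and none in epithelium, in both mesothelium libraries for Pdgfrb (0.484 and 0.362 kb) and in 1 for the others. Col1a1 had 0 and 1.11 kb in mesothelium, against 0 and 0.318 kb in epithelium, and Acta2 had no peak in mesothelium. The part that other cell types had in the regions was not tested. Myrf had 0 and 1.53 kb in mesothelium, against 1.49 and 1.25 kb in epithelium (limma adjusted p = 0.635).

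The 573 mesothelium-only regions were fewer than the epithelium-only ones and more than in any single pattern that joined 1 library of each cell type. The same rule with the cell types exchanged gave 1109 epithelium-only regions. Regions with a peak in exactly 1 mesothelium and 1 epithelium library, called crossed here, have no common cell type and numbered 948 in all, or 190 to 281 in each of the 4 such patterns (237 ± 37.6, SD, n = 4 patterns). A further 282 had a peak in all 4 libraries. The mesothelium-only count was 2.42 times that mean and the epithelium-only count 4.68 times. With 4 libraries there are 3 ways to split them into pairs, the smallest exact p is 0.333, and no test of these counts was made. The presence of peaks chose the regions, so their number and strength are a description. When all 4 lists were first limited to peaks with a −log10 q of 4 or more, the same rule gave 2 regions, and 236 at 2 or more. Weaker epithelium peaks drop out at these limits too, so these counts take in regions outside the 573. When a mesothelium library is left out a region needs a peak in the other only, and there were 8525 regions without replicate 1 and 8071 without replicate 2.

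Most of the regions were short and rested on 1 modest peak per library. Their width had a median of 1323 bp, a middle range of 908 to 2005 bp and extremes of 377 and 6362 bp, and together they spanned 905 kb. Epithelium-only regions had a median width of 1541 bp, crossed ones 1042 bp and intergenic distal regions present in all 4 libraries 2832.5 bp. In 567 regions each mesothelium library had a single peak. The deposited fold enrichment of these peaks, the authors' value over the peak caller's background, had a median of 3.65 in replicate 1 and 3.89 in replicate 2. For all other peaks of the same lists it was 3.598 and 3.75. The deposited −log10 q had a median of 1.78 and 2.23 in the regions and of 1.71 and 2.05 in all other peaks. The regions thus drew on peaks close to the middle of each list.

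The 2 mesothelium libraries often covered different stretches of the same region. Peaks covered 589 kb of the regions in replicate 1 and 647 kb in replicate 2, and 332 kb in both. Per region the median was 0.773 kb in replicate 1 (0.319 to 5.46 kb) and 0.895 kb in replicate 2 (0.311 to 5.54 kb). The stretch shared by both had a median of 0.443 kb, or 35.3% of the region's width. Replicate 2 covered more in 304 regions and replicate 1 more in 269, and in 223 regions (38.9%) one covered over 2 times as much as the other. Across the 573 regions the Spearman correlation between the libraries was 0.22 for covered length, 0.13 for −log10 q and 0.10 for fold enrichment. These are descriptions over regions that share libraries and a peak-calling minimum. A −log10 q of at least 2 in both libraries was reached by 151 regions (26.4%), and one of at least 4 in both by none.

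**Figure D1:**
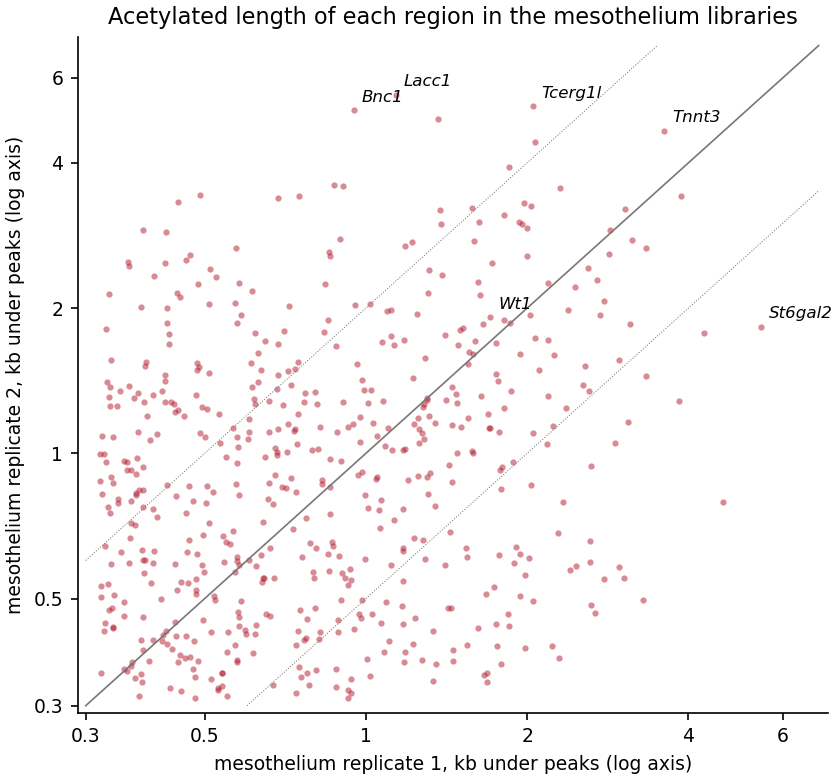
Kilobases under peaks in mesothelium replicate 1 (x axis, log scale) and replicate 2 (y axis, log scale) for each of the 573 regions, with the solid line at equal lengths and dotted lines at a factor of 2. Points scatter widely around equality (Spearman correlation 0.22), and some of the widest regions, named by their nearest gene, are long in only 1 library: that beside Bnc1 had 0.949 kb in replicate 1 and 5.15 kb in replicate 2.

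The widest regions lay beside genes of varied function and rested mostly on a long peak in 1 of the libraries. The widest, 6362 bp, lay 344 kb from Tcerg1l (chr7:137858882-137865243, mm10), and was covered over 2.05 kb in replicate 1 and 5.25 kb in replicate 2. The next was 104 kb from Lacc1, with 1.14 and 5.54 kb. That 152 kb from the sialyltransferase gene St6gal2 (chr17:55287192-55292650) was longer in replicate 1, with 5.46 kb against 1.83 kb in replicate 2. The region 5.05 kb from Tnnt3, which encodes fast skeletal muscle troponin T, was the one of the 4 widest that both libraries covered at length, over 3.597 and 4.66 kb. The region beside Bnc1, which encodes the zinc-finger protein basonuclin 1 and is used as a mesothelial marker, was also among them (chr7:82052950-82058097). The nearest epithelium peak was 54.1 kb from it. Regions beside Chrm3, a muscarinic receptor gene, Defa21, a defensin gene, Sema3d and Slit2, which encode secreted guidance cues, and N6amt1, a methyltransferase gene, completed the 10 widest, at 4269 to 4939 bp. Of the 573 regions, 8 had a nearest gene in the major urinary protein, defensin, olfactory or vomeronasal receptor families, which hold many similar copies. How reads with several matching places were handled is not given in the sources used here, so these 8 are uncertain; they were picked out after their names were seen.

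The regions with the strongest peaks were narrower. Ranked by the lower −log10 q of the libraries, the first lay 10.7 kb from Epn2, an endocytic adaptor gene (chr11:61590417-61591191), with a −log10 q of 4.51 in replicate 1 and 3.78 in replicate 2 over 0.330 and 0.775 kb. The second lay 6.02 kb from Usp6nl, which encodes a GTPase-activating protein of RAB5 (chr2:6454320-6455807), with 3.61 and 4.97. The others lay beside the ribosomal scaffold gene Rack1, the mitochondrial transcription factor gene Tfam, Ccdc54, the cell adhesion gene Opcml, Otogl, the transglutaminase gene Tgm2, the translocon gene Ssr3 and the LIM-only gene Lmo4. These 10 were 775 to 2973 bp wide, and none was among the 10 widest. An epithelium peak lay 0.057 kb from the region beside Otogl and 0.730 kb from that beside Ccdc54. In all, 40 regions (6.98%) had an epithelium peak within 1 kb and 255 (44.5%) within 10 kb, with a median distance of 11.7 kb.

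The rule set a distance of more than 2 kb from gene ends for all classes compared here. Beyond that limit, the median distance to coding genes was close to that of the other classes present in 2 libraries. The distance to the nearest coding gene had a median of 55.8 kb. It was 57.7 kb for epithelium-only regions and for crossed regions alike, and 35.1 kb for those present in all 4 libraries. Of the 573, 86 (15%) lay within 10 kb and 273 (47.6%) within 50 kb of a coding gene, and 221 (38.6%) beyond 100 kb. Beyond 500 kb lay 48 (8.38%), against 4.15% of epithelium-only and 9.28% of crossed regions. The midpoints of 79 (13.8%) lay in a noncoding gene. At the 2 kb limit, the regions just inside it lay 2019, 2024 and 2065 bp from a gene end, that of a tRNA gene near Nufip1 and those of the noncoding genes Gm36254, near Bmp7, and Gm30456, near Atp23. The mesothelium-only regions just outside it lay 1963 bp from Ift74, 1942 bp from Mir125b-2 and 1939 bp from Gm30789. By chromosome, chr16 had 38 of the regions, 2.13% of its intergenic distal regions of any pattern, and chrX had 5, or 0.388%, against 1.42% over all chromosomes.

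Along the genome the regions were mostly single. They fell into 421 gaps between neighbouring coding genes, 333 of which held 1 region, and 29 gaps held 3 or more, with 122 regions (21.3%). Within 50 kb of another of the regions lay 140 (24.4%), in 61 runs of 2 or more. The share was 28.1% for the 1109 epithelium-only and 15.9% for the 948 crossed regions. Larger groups give more neighbours at any spacing, and these shares were not tested. In 101 of the 421 gaps (24.0%) an epithelium-only region was found as well. The 451 nearest genes included 380 with 1 region, and 24 genes with 3 or more accounted for 99 regions.

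One stretch of chromosome 16 held the most. In the 1453 kb between Adamts5, which encodes an aggrecan-cleaving protease of the extracellular matrix, and N6amt1 there were 17 mesothelium-only regions, no epithelium-only region and 2 crossed ones, among 105 regions of any pattern. The 17 spanned chr16:85988046-87308633 and were covered over 25.8 kb in replicate 1 and 28.3 kb in replicate 2. In the rest of that gap, which the rule did not choose, peaks covered 15.04 and 21.8 kb in mesothelium, against 13.5 and 7.65 kb in epithelium, so both mesothelium libraries lay above both epithelium libraries. Of the other gaps with 5 or more regions, those from Asb13 to Calml3 and from Mpdz to Nfib did the same. Both mesothelium libraries lay below before Slit2 (17.0 and 20.8 kb against 31.0 and 31.6 kb) and between Epha7 and Map3k7. After Fgf9 and before Sulf1 the libraries overlapped. These lengths leave out the mesothelium-only regions and keep the epithelium-only ones, which lowers mesothelium relative to epithelium. How many of all gaps split in this way was not counted. For gene bodies with 2 kb flanks, mesothelium lay above without overlap in 23.8% of 9994 genes tested and below in 22.1%. Adamts5 was the nearest gene of 10 of the 17 regions and of 1 more on its other side, and N6amt1 of 7. Among them, that of 3137 bp at chr16:86461112-86464248 was covered over 3.14 and 2.77 kb, and that of 3423 bp at chr16:87261002-87264424 over 2.86 and 2.90 kb. Adamts5 itself had 1.14 and 7.63 kb in mesothelium and no peak in epithelium, which did not pass (log2 difference 2.85, SE 0.85, limma adjusted p = 0.080; 0.024 to 0.672 over the alternatives). N6amt1 had too little signal to be tested.

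Another 6 gaps held 5 or 6 of the regions each. There were 6 between Asb13 and Calml3 on chromosome 13, within 149 kb, the shortest of these gaps. There were also 6 between Mpdz, which encodes a PDZ scaffold of tight junctions, and Nfib, which encodes a nuclear factor I protein of lung maturation. The gap after Fgf9, whose product is a growth factor of the embryonic pleura, held 6, the nearest of them 304.6 kb from Fgf9. The gap before Slit2 held 6, and that before Sulf1, which encodes a heparan sulfate sulfatase, 5. The gap between Epha7, an ephrin receptor gene, and Map3k7 held 5 mesothelium-only and 5 epithelium-only regions. Nfib was the nearest gene of 7 regions, 4 of them within 42.1 kb between Nfib and Zdhhc21.

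**Figure D2:**
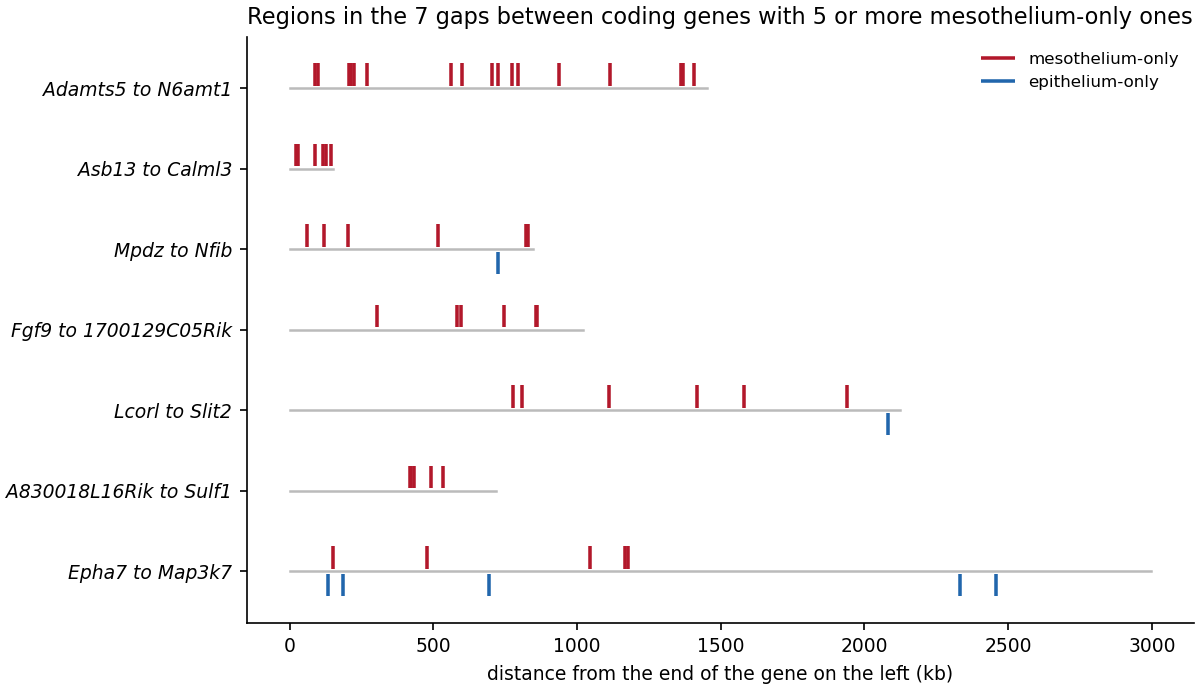
Positions of mesothelium-only (upper ticks) and epithelium-only (lower ticks) intergenic distal regions in the 7 gaps with 5 or more mesothelium-only regions, as distance in kb from the end of the gene on the left; grey lines span the gap. The 7 gaps held 51 mesothelium-only and 7 epithelium-only regions, with 5 of each between Epha7 and Map3k7.

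Genes of mesothelium and mesoderm were among those nearest to the regions. Of 20 mesothelial markers, 6 were nearest to a region, with 10 regions in all, against 3 markers with 4 epithelium-only regions. Wt1, a zinc-finger factor of mesothelium, had 1 region 28.2 kb away inside the noncoding gene Wt1os (chr2:105096370-105098302), which both mesothelium libraries covered over nearly the same stretch: 1.704 kb in replicate 1, 1.91 kb in replicate 2 and 1.69 kb in both. Gpm6a, a membrane glycoprotein gene, had a region 12.5 kb away (chr8:54765029-54766973), with 1.78 and 0.922 kb, and no epithelium peak within 93.8 kb of it. Aldh1a2, which encodes a retinoic acid synthesis enzyme, had a region of 813 bp at 49.6 kb with 0.387 and 0.600 kb, so this was a small one. Sulf1 had 5 regions, 183 to 298 kb away, with 5.84 and 8.003 kb in sum. Krt19, a keratin gene shared by mesothelium and epithelia, had 1, with an epithelium peak 1.13 kb from it.

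Of 42 mesothelial and mesodermal transcription factor genes, 9 were nearest to a region, with 13 regions, against 5 genes with 7 epithelium-only regions. Meis1, a homeobox gene whose product binds DNA together with HOX proteins, had 4 regions between 7.54 and 344 kb away, with 4.06 kb in replicate 1 and 6.16 kb in replicate 2 in sum. The nearest, 2993 bp wide (chr11:18869898-18872890), was covered over 1.38 and 2.99 kb. Zeb2 had 2 regions, 294 and 1076 kb away. Gata5 and Gata6, zinc-finger factor genes of mesoderm and endoderm, had 1 each, 4.63 and 127 kb away. Tbx18, a T-box gene of mesothelium and its derivatives, and Isl1, a LIM homeobox gene, had 1 each although neither gene body had a peak in any library. The region beside Tbx18 was 3364 bp wide (chr9:87648459-87651822), 51.0 kb away, and was covered over 1.39 and 2.35 kb. That beside Isl1 lay 576 kb away.

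Collagen and matrix genes were beside 15 regions, and none of those beside Col3a1 had an epithelium peak within 50 kb. Of 28 such genes 9 were nearest to a region, against 5 genes with 6 epithelium-only regions. Col3a1, a fibrillar collagen gene, had 3, at chr1:45289571-45292320, chr1:45297155-45300008 and chr1:45355349-45359177, between 5.64 and 19.2 kb away. They were covered over 7.20 kb in replicate 1 and 7.48 kb in replicate 2 in sum, and the nearest epithelium peaks were 120, 112 and 52.7 kb from them. Its neighbour Col5a2, also a fibrillar collagen gene, had 1, 37.7 kb away. Col6a1 and Col6a2, which encode chains of collagen VI, shared 4 regions within 69.6 kb. The proteoglycan genes Lum and Dcn had 3 and 1, the elastin gene Eln and the collagen I gene Col1a2 1 each, and the tenascin gene Tnc 1, with an epithelium peak 0.160 kb from it. Fibroblasts make these matrix proteins too; the fibroblast and smooth muscle markers above were at 2.43 kb or less in sum, and their part in these regions was not tested.

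Among signalling genes the regions were found beside hedgehog, TGF-beta and BMP, FGF, Wnt and guidance genes. Of 13 hedgehog genes 4 had 7 regions, against 3 genes with 8 epithelium-only regions. Boc and Gas1, which encode co-receptors for hedgehog ligands, had 2 each, Hhip, whose product binds and inhibits the ligands, 1, and Gli3, a transcriptional effector, 2. The region beside Hhip was 2389 bp wide (chr8:80251587-80253975) and was covered over 2.39 and 1.98 kb, and the larger of those beside Gas1 (chr13:60286061-60288303) over 2.24 and 1.60 kb. Gas1 had no peak in its gene body in any library. Of 27 TGF-beta and BMP pathway genes 6 had 1 region each, among them the ligand genes Bmp2, Bmp7 and Inhba, and as many had 13 epithelium-only regions. The FGF list had Fgf9 alone (1 of 18), against 5 genes with 13 epithelium-only regions. The Wnt list had the antagonist genes Dkk2 and Dkk3 (2 of 29, with 3 regions), against 5 genes with 6. Of 22 guidance genes Epha7, Slit2 and Sema3d had 11 regions, against 8 genes with 16 epithelium-only regions.

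No mesothelium-only region had a listed lung epithelial gene as its nearest gene. None of 24 lung epithelial transcription factor genes, 20 alveolar and airway markers and 20 junction genes was the nearest gene of a mesothelium-only region. For epithelium-only regions the numbers were 12 genes with 27 regions, 6 genes with 7 and 3 genes with 3. The YAP and TEAD list and the anterior Hox list were also without a mesothelium-only region. Of all 21887 coding genes, 451 were nearest to a mesothelium-only region and 802 to an epithelium-only region. At that share few genes of such short lists would have a mesothelium-only region, so the counts of 0 say little. A region can also lie close to an epithelial gene that is not its nearest gene. One of 2998 bp (chr8:106677986-106680983) lay in the 12.8 kb gap between the epithelial marker Cdh1 and Tango6, with Tango6 the nearer. It was covered over 1.22 kb in mesothelium replicate 1 and 2.74 kb in replicate 2. Of markers of other cell types, the fibroblast list had Dlk1 with 2 regions. The sort left out cells with CD31 or CD45, which mark endothelium and blood, and the endothelial list had Cdh5 and Kdr with 1 region each and the blood list Ptprc with 3. The regions beside Ptprc, which encodes CD45, lay 120 to 522 kb from it, and Ptprc had no peak in either mesothelium library.

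**Figure D3:**
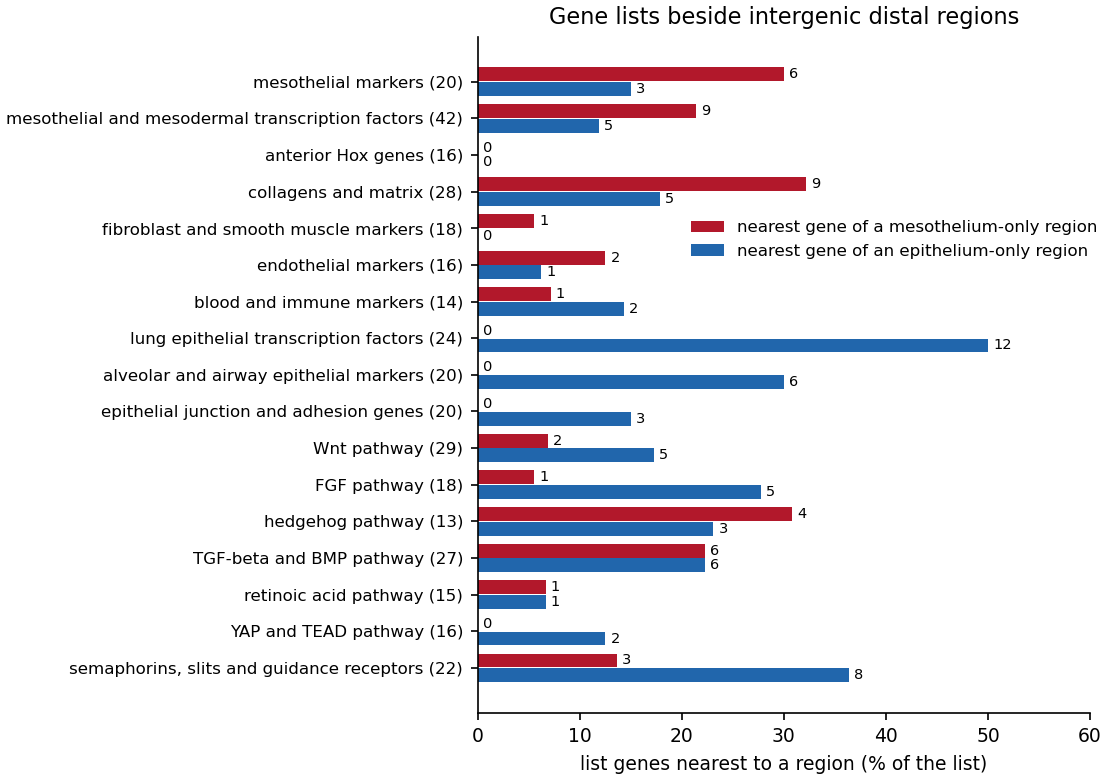
Share of each gene list whose genes are the nearest coding gene of a mesothelium-only (upper bars) or epithelium-only (lower bars) intergenic distal region, with the number of genes at each bar and the list size in brackets. Mesothelium-only regions reached 6 of 20 mesothelial markers and no lung epithelial transcription factor gene, and the 1109 epithelium-only regions reached 3 and 12. Of all 21887 coding genes they reached 451 and 802.

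The genes nearest to the regions were then compared in their own bodies, which hold no base of any of the regions. For each gene the kilobases under peaks in the body with 2 kb flanks were compared between mesothelium and epithelium with limma on log2(kb + 0.5) after median centring. This scale understates the difference of short lengths. Of 9994 genes tested, 351 were called at a Benjamini-Hochberg adjusted p under 0.05 (3.51%), 122 longer in mesothelium (1.22%) and 229 longer in epithelium (2.29%), and 1670 had an unadjusted p under 0.05. Of the 451 nearest genes 319 had enough signal to be tested. Of these, 35 were called (10.97%), 30 longer in mesothelium (9.40%) and 5 longer in epithelium (1.57%). The median log2 difference of the 319 was 0.37, against 0.03 over all genes tested. The libraries of the cell types did not overlap, with mesothelium above, in 116 of the 319 (36.4%), against 23.8% of all genes, and with mesothelium below in 60 (18.8%), against 22.1%. The same 4 libraries chose the regions and gave these lengths, so the counts describe the neighbourhood and are not independent of the choice. Without mesothelium replicate 1 or 2 there were 13 nearest genes longer in mesothelium in each case, 22 without epithelium replicate 1 and 17 without epithelium replicate 2. The number longer in epithelium was 8 and 2 without mesothelium replicates 1 and 2 and 0 without either epithelium replicate. After quantile normalization 18 genes were called longer in mesothelium, 4 of them nearest genes, and 22 longer in epithelium, with no nearest gene. When 0.1 kb was added before the log Meis1 was the only call, and from peaks with a −log10 q of 2 or more limma called no gene (881 genes at an unadjusted p under 0.05).

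Genes beside epithelium-only regions showed the opposite split. Of 557 tested, 6 (1.08%) were longer in mesothelium and 51 (9.16%) longer in epithelium. Genes beside crossed regions split as 17 (3.12%) and 38 (6.97%) of 545. A share above that of all genes was thus seen beside crossed regions as well, in both directions. Beside mesothelium-only regions 14 of 169 tested genes (8.28%) with a region within 50 kb were longer in mesothelium, and 16 of 150 (10.7%) whose regions were all farther. Genes with 2 or more regions had 9 of 55 (16.4%). Both kinds of region had 75 nearest genes in common, 16.6% of the genes of mesothelium-only and 9.35% of those of epithelium-only regions.

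**Figure D4:**
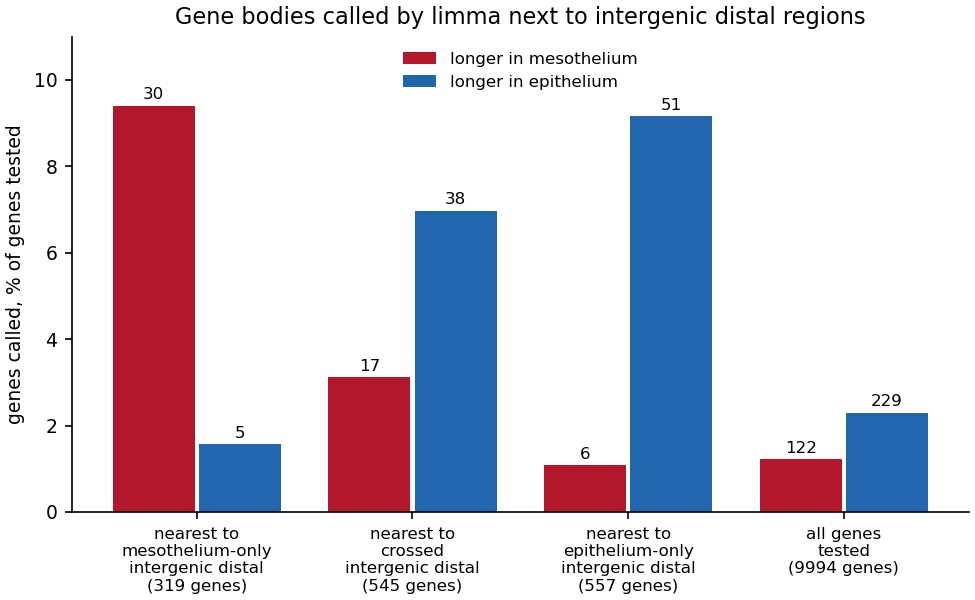
Percentage of tested genes whose bodies with 2 kb flanks were called longer in mesothelium (left bar of each pair) or longer in epithelium (right bar), for genes nearest to each kind of intergenic distal region and for all 9994 genes tested, with the number of genes above each bar. Of genes nearest to mesothelium-only regions 9.40% were longer in mesothelium, against 1.22% of all genes.

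The called neighbours included genes of mesoderm and mesothelium, 2 hedgehog genes, 1 FGF gene and 1 retinoic acid gene. Meis1 had 38.0 and 42.2 kb in mesothelium, against 1.68 and 1.79 kb in epithelium (log2 difference 4.16, SE 0.42, limma adjusted p = 8.1e-05). Gpm6a had 4.89 and 11.6 kb and Wt1 3.19 and 11.6 kb in mesothelium, and neither had a peak in epithelium (limma adjusted p = 0.0047 and 0.010). The mesothelium libraries thus differed by more than 2 times in both genes while staying above the epithelium libraries. Sulf1 had 17.1 and 21.0 kb against 0.392 and 3.07 kb (log2 difference 3.43, limma adjusted p = 0.0052). Zfpm2, which encodes a cofactor of GATA proteins, had 21.8 and 35.6 kb against 2.11 and 2.70 kb (log2 difference 3.28, limma adjusted p = 0.00079). Med13l, a Mediator kinase module gene, Gypc, Gm12695, Crim1, which encodes a transmembrane protein that binds BMPs, and Aldh1a2 completed the 10 largest differences, at 3.17 to 3.52 on the log2 scale. Aldh1a2 had 2.18 and 7.27 kb in mesothelium and no peak in epithelium (limma adjusted p = 0.030).

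By list, 5 of the 6 mesothelial markers beside a region were longer in mesothelium, all but Krt19, with 0.640 and 0 kb in mesothelium, against 2.30 and 1.32 kb in epithelium (limma adjusted p = 0.339). Over the whole list 6 of 18 tested markers were longer in mesothelium and 1, Pdpn, was longer in epithelium, against 1.22% and 2.29% of all genes tested, and the median log2 difference was 2.09, against 0.03 over all genes. Of the markers beside a region, Bnc1 had 3.06 and 4.69 kb against no peak (limma adjusted p = 0.029). Of the 9 mesodermal transcription factor genes 6 were tested and 4 called, Meis1, Zeb2, Bnc1 and Wt1, and over the whole list 7 of 20 tested genes were longer in mesothelium and none in epithelium. Zeb2 had 11.9 and 9.43 kb in mesothelium, against 0 and 2.51 kb in epithelium (log2 difference 3.15, limma adjusted p = 0.025). Gata6 had 5.70 and 12.4 kb in mesothelium, against 13.0 and 10.7 kb in epithelium, and did not pass (limma adjusted p = 0.635). Fgf9 had 1.79 and 12.2 kb against 0 and 0.302 kb (log2 difference 3.07, limma adjusted p = 0.043). The whole FGF list went the other way, with 1 of 14 tested genes longer in mesothelium, 2 longer in epithelium and a median log2 difference of -1.01. Hhip, with 9.104 and 13.1 kb against 1.84 and 1.97 kb, and Boc, with 5.85 and 9.75 kb against 1.47 and 1.14 kb, were longer in mesothelium (limma adjusted p = 0.023 and 0.046). Gli3 did not pass, with 21.5 and 22.9 kb in mesothelium, against 24.9 and 11.1 kb in epithelium (limma adjusted p = 0.655). Over the whole hedgehog list 3 of 8 tested genes were longer in mesothelium and 1 in epithelium. Over the retinoic acid list it was 1 of 9 and 0.

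Of the 9 matrix genes 6 were tested and Col5a2 alone was called, with 4.50 and 18.7 kb in mesothelium, against 1.66 and 1.12 kb in epithelium (log2 difference 2.37, limma adjusted p = 0.043). Col3a1 had 1.47 and 4.83 kb and Col6a1 2.47 and 2.40 kb in mesothelium and no peak in epithelium, which did not pass (limma adjusted p = 0.087 and 0.102). Over the whole matrix list 4 of 23 tested genes were longer in mesothelium and 3 in epithelium. None of the 4 tested TGF-beta and BMP genes was called. Of the guidance genes Sema3d was called, with 8.13 and 18.7 kb against 1.19 and 2.55 kb (limma adjusted p = 0.020), while Epha7 (13.5 and 19.7 kb against 31.3 and 24.0 kb) and Slit2 (5.45 and 7.77 kb against 9.61 and 6.40 kb) did not pass (limma adjusted p = 0.242 and 0.828). Over the whole guidance list 1 of 21 tested genes was longer in mesothelium and 6 in epithelium. Nfib, with 7 regions, had 76.4 and 55.8 kb in mesothelium, against 58.7 and 37.4 kb in epithelium and did not pass (limma adjusted p = 0.408).

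In all, 5 neighbours were longer in epithelium although a mesothelium-only region lay beside them. Tes, a LIM-domain gene of focal adhesions, had 3 regions between 3.66 and 48.8 kb away, covered over 6.25 kb in replicate 1 and 5.35 kb in replicate 2 in sum. Its body had 1.61 and 0 kb in mesothelium, against 6.01 and 6.46 kb in epithelium (log2 difference -2.73, SE 0.73, limma adjusted p = 0.049). The others were Zfp804b, Tbc1d8, Sash1 and Dapk1, a death-associated kinase gene, with log2 differences of -2.30 to -1.42 and 1 region each. The regions beside Tbc1d8 and Sash1 lay only 2.68 and 3.22 kb from these genes.

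Most of these calls were lost when 1 or another of the 4 libraries was left out. Meis1, Zfpm2, Arhgap28 and Mpdz were called with any 1 library left out. Of the 35 called neighbours, leaving out mesothelium replicate 2 ended 24 calls, mesothelium replicate 1 ended 18, epithelium replicate 2 ended 19 and epithelium replicate 1 ended 15. Without mesothelium replicate 2, limma gave an adjusted p of 0.301 for Wt1, 0.131 for Gpm6a, 0.465 for Aldh1a2, 0.318 for Bnc1, 0.558 for Fgf9, 0.420 for Col5a2 and 0.174 for Sema3d. Aldh1a2 and Bnc1 were also lost without mesothelium replicate 1 (0.074 and 0.139) or epithelium replicate 2 (0.066 and 0.067), and Fgf9 without epithelium replicate 1 (0.085) or 2 (0.057). Col5a2 was also lost without epithelium replicate 2 (0.141) and Sema3d without epithelium replicate 1 (0.080). Sulf1 was lost without mesothelium replicate 1 (limma adjusted p = 0.055), and Zeb2 without mesothelium replicate 1 (0.224) or epithelium replicate 1 (0.144). Hhip, Boc, Mef2c and Map3k8 lost their call whichever library was left out, and Tes did so in all but the fit without mesothelium replicate 1. Over the 13 alternatives the lowest adjusted p (limma) of a called neighbour lay between 2.1e-16 for Meis1 and 0.019 for Map3k8, and the highest between 0.120 for Meis1 and 0.845 for Col5a2. All 35 kept their direction in each of these alternatives.

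**Figure D5:**
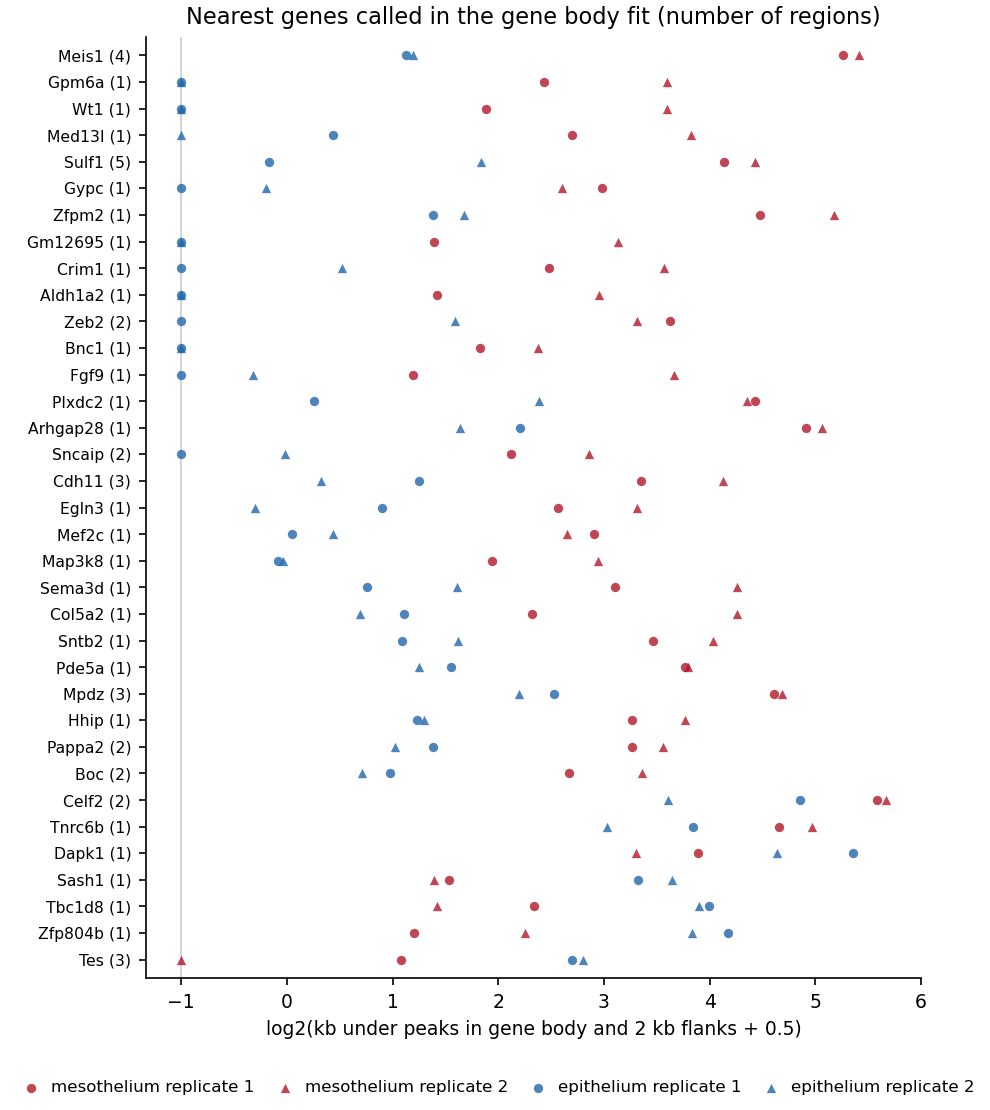
Kilobases under peaks in the body with 2 kb flanks of each of the 35 called nearest genes, as log2(kb + 0.5), in mesothelium (red) and epithelium (blue) replicates 1 (circles) and 2 (triangles), with the number of regions beside the gene in brackets; the grey line marks no peak. In the upper 30 genes both mesothelium libraries lie above both epithelium libraries, and in the lower 5, from Dapk1 to Tes, they lie below.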

How the data were processed

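H3K27ac CUT&RUN was done on sorted cells from pooled lungs of mouse embryos at E16.5, 2 libraries per cell type, and groups came from the sample titles. The submitters' processing notes name cutadapt 4.8, Bowtie2 2.5.3, MACS2 2.2.9.1 and the build mm10, among other tools, without their roles. The sources used here give neither the peak caller's threshold nor its control, and the 2 IgG libraries were not analysed here. The authors deposited 1 list of broad peaks per library, not pooled. The deposited score was not used. The deposited ratio is a fold enrichment per peak, and the deposited −log10 p and −log10 q rank peaks within a list. A list holds only intervals above a minimum, so lengths depend on a depth that no list states.

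Peaks on chromosomes 1 to 19, X and Y that shared at least 1 bp were merged. Gene positions and promoter sequences came from RefSeq tables of GRCm38.p6, the assembly of mm10. All 351 entries of the 17 gene lists matched. No genome sequence was used here, so the planned motif search in the regions was not run. Lengths per gene body with 2 kb flanks, as log2(kb + 0.5), were centred on the median of the 6479 genes that had a peak in each library. They were compared by limma 3.58.1 under R 4.3.3 (trend fitted, Benjamini-Hochberg adjustment) over 9994 genes with a mean of at least 0.5 kb. Interval steps and limma were tested on simulated data. Interval work was done under Python 3.11.15 with numpy 2.4.6 and pandas 2.3.3, Spearman correlations with scipy 1.17.1 and plots with matplotlib 3.10.9. The regions and the gene lists were chosen with earlier results of these data known.

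Genes were named by a rule: nearest genes with most regions, the 10 widest regions and the 10 with the highest lower −log10 q, up to 4 nearest genes per list, the 10 largest called differences in each direction, 3 regions on each side of the 2 kb limit, sort markers, cell type markers and Myrf. Alternatives varied the overlap, the threshold on peaks, their number, the merging, the limit, the genes used, the scaling, the added length, the filter, the flanks, the replicate numbers as a block and each library left out. Results of 1 listed transcription factor gene are counted in its list but are not reported here by name.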

Additional observations from a re-analysis of the deposited data

How the results depend on the processing

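The number, width, distance and grouping of the regions changed with the peaks admitted. With a −log10 q of at least 2 there were 236 regions with a median width of 1575.5 bp and a median distance of 41.9 kb, 13.1% of them within 50 kb of another, and with at least 4 there were 2, with 2814 bp, 42.8 kb and 0%. A limit of 5 kb to gene ends gave a median distance of 74.3 kb. When peaks had to share 50% of the shorter one, 19% lay within 50 kb of another. Over the fits without 1 library the number ranged from 673 to 8525, the width from 478 to 1382.5 bp, the distance from 49.2 to 103.9 kb and the share within 50 kb from 25.4 to 48.9%. Merging touching peaks, an alternative chosen after seeing the data, again gave 573 regions.

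Gene body calls depended on the scale and the scaling. Of all tested genes, 122 were longer in mesothelium and 229 in epithelium, with 30 and 5 nearest genes. With 0.1 kb added these were 1 and 0, and 1 and 0 (1483 genes at an unadjusted p under 0.05 by limma), and at a −log10 q of 2 or more all 4 were 0 (881 at an unadjusted p under 0.05, 57 of them nearest genes). Scaled to total length they were 44 and 65, and 11 and 0, and after quantile normalization 18 and 22, and 4 and 0. With 1 kb added the nearest genes longer in epithelium were 8, and without a filter 9, with 185 of all genes longer in mesothelium. Without 1 library the ranges were 47 to 104 and 48 to 249, and 13 to 22 and 0 to 8. The correlation of deviations between same-numbered libraries was 0.03, and the labels do not say whether the numbers pair them. With the replicate number as a block the counts were 196 and 330, and 37 and 9. The direction turned, without a call, for Acvr2a (0.87) and Tns1 (-0.19) at a −log10 q of 2 or more, and for Jcad without flanks (-0.0075). Without 1 library the differences ranged from -0.36 to 0.68 for Jcad, -0.16 to 0.87 for Gli3, -1.79 to 0.014 for Myrf and -0.11 to 0.23 for Tns1. The cause was not tested.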
